A study of Homo sapiens with 9 samples.

Results

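The comparison described here set HEK293 cells that overexpressed the *Alu* exon skipping isoform of ADARB1 (Short) against the same cells transfected with the empty vector (EV). It used 6 of the 9 RNA-seq libraries of the study, namely Short replicates 1 to 3 and EV replicates 1 to 3, and paired them by replicate number. The other 3 libraries came from cells transfected with the *Alu* exon inclusion isoform (Long) and entered the fit, where they helped to estimate the spread, and are used here for a few comparisons side by side. HEK293 cells are an established line from human embryonic kidney. All cells were grown in DMEM with 10% serum, were transiently transfected with a lipid reagent, and were collected 48 hours later. The Short plasmid was a pCMV6 construct with an ADARB1 open reading frame that lacks the *Alu* exon. A transient transfection leaves a mixture of cells with and without plasmid, and expression from such a vector is far above the endogenous level. The replicates were different passages of one cell line. The fit had a term for the passage, so that p-values measure how the differences between the groups vary from passage to passage.

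ADARB1 encodes the enzyme ADAR2, which converts adenosine to inosine in double-stranded RNA. It is best known for recoding glutamate receptor transcripts in the brain, and most of its other sites lie in inverted repeats in introns and untranslated regions. Its relative ADAR edits many of the same repeats, and inosine in cellular duplexes keeps them from being read as viral RNA by sensors such as MDA5. Gene expression was therefore of interest at 3 levels here, the transfected gene itself, the pathways that respond to double-stranded RNA or stress, and broad classes of genes.

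Expression was given as FPKM for 54562 genes, that is, as sequenced fragments divided by gene length and by the size of the library. FPKM sums ranged from 517170 to 541348 in EV and from 533531 to 589535 in Short, and within each passage the sum was higher in Short. No fragment counts were at hand, so that the depth behind a value is unknown. Judged by the most common ratio to EV replicate 1 among genes of very low FPKM, relative depths lay between 0.986 and 1.21. This is a rough estimate, since only 21.9% to 27.8% of those genes in the Short libraries lay close to that ratio. Genes entered the fit when they averaged 1 FPKM or more over the 9 libraries, which left 13801. Differences are on the log2(FPKM + 1) scale as Short minus EV unless stated otherwise, and this scale compresses differences of genes at low FPKM. Libraries of passage 3 stood apart from those of passages 1 and 2 in each group, and differences are therefore also given pair by pair.

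Since the median gene differed by 0.04 between Short and EV, and by -0.0045 after scaling by the median ratio, lists of genes are described relative to the median of all genes. Of the 13801 genes, 4411 (32%) were higher in Short in the 3 pairs and 1844 (13.4%) were lower in the 3 pairs. With median ratio scaling, these counts were 2917 (21.1%) higher and 2730 (19.8%) lower, so that the excess of higher over lower genes depended on the scaling. At an unadjusted p under 0.05 in limma, 2092 genes (15.2%) were higher and 949 (6.88%) were lower. At an adjusted p under 0.05, 5 genes passed (0.0362% of those tested), of which 4 rose (0.029%) and 1 fell (0.00725%). Passage 3 weighed on that number: 59 genes passed without replicate 3, 16 higher and 43 lower, against 2 without replicate 1 and 6 without replicate 2.

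The transfected gene was the largest change. ADARB1 (ENSG00000197381, GRCh37 chr21:46493768-46646475, plus strand) was at 7.66, 7.999 and 8.61 FPKM in EV replicates 1 to 3 and at 1889, 4145 and 2735 FPKM in the corresponding Short libraries. All 3 Short libraries lay far above all EV libraries, and replicate 2 was the highest. The difference was 8.26 on the log2 scale (SE 0.16, adjusted p = 1.58e-09, limma with Benjamini-Hochberg adjustment), and the exact two-sided permutation test over 3 libraries against 3 gave p = 0.1, the smallest that this design allows. ADARB1 ranked 28th, 6th and 8th among all genes in the Short libraries and took up 0.32%, 0.745% and 0.513% of their FPKM sums. The gene-level value does not separate plasmid from endogenous transcripts.

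The other deaminases did not pass the test. ADAR, which encodes ADAR1, was at 63.2, 60.5 and 59.3 FPKM in EV and at 67.3, 65.2 and 61.7 FPKM in Short, slightly higher in each pair and with overlapping groups (log2 difference 0.08, SE 0.05, adjusted p = 0.356, limma). ADARB2, a brain relative without known catalytic activity, stayed near the lower limit of the genes tested, with 1.03, 1.33 and 0.877 FPKM in EV and 1.23, 1.42 and 0.912 FPKM in Short. ADAT3, a subunit of the tRNA adenosine deaminase, was higher in the 3 pairs, with 3.49, 4.25 and 4.41 FPKM in EV and 3.91, 5.54 and 5.72 FPKM in Short (log2 difference 0.25, SE 0.10, adjusted p = 0.189, limma). Its catalytic partner ADAT2 had log2 differences of 0.08, -0.22 and -0.10 in the pairs. Of the 6 tested genes of the deaminase list other than ADARB1, ADAR, ADARB2 and ADAT3 were higher in the 3 pairs and none was lower. Among all genes, 32% were higher and 13.4% lower. After each library was corrected for GC content, the log2 differences were 0.05 for ADAR, -0.0045 for ADARB2 and 0.07 for ADAT3.

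Among the other genes that passed, SNORA21 and the gene that fell are short and lie inside longer transcripts, and their sequences are shown because this bears on how their FPKM can be read. SNORA21 is a small nucleolar RNA of the H/ACA class, which guide pseudouridylation of ribosomal RNA. It lies on the minus strand at GRCh37 chr17:37007777-37007912 inside RPL23, and an annotated RPL23 transcript contains all its 136 bases. The capitals mark the ACA box, which lies 3 bases before the 3′ end.
SNORA21: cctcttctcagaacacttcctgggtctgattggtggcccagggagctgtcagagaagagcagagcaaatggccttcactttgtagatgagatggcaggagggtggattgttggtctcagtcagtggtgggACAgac
SNORA21 was listed at 0, 0.294 and 0 FPKM in EV and at 3.29, 3.04 and 1.35 FPKM in Short. It was near 0 in each EV library and above 1 FPKM in each Short library (log2 difference 1.66, SE 0.19, adjusted p = 0.0156, limma). With a pseudocount of 0.1 in place of 1 the difference was 3.98. SNORA21 reached the minimum mean of 1 FPKM only through the Short and Long libraries, with a Long mean of 2.27. With no filter its adjusted p was 0.223 (limma). Its host RPL23, a protein of the large ribosomal subunit, was at 1397, 1457 and 1346 FPKM in EV and 1537, 1505 and 1339 FPKM in Short, a log2 difference of 0.06 (SE 0.04, adjusted p = 0.406, limma). The libraries were made from poly(A) RNA, which small nucleolar RNAs lack, and whether fragments of RPL23 were assigned to SNORA21 was not tested.

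The only gene that fell was ENSG00000241434, annotated as a transcribed processed pseudogene at GRCh37 chr19:53999141-53999291 on the plus strand. Its 151 bases lie within an annotated transcript of ZNF813 and align to RPL39 with 90.7% identity, with 13 mismatches and 1 gap, and 54 annotated genes gave an alignment to it in all.
ENSG00000241434: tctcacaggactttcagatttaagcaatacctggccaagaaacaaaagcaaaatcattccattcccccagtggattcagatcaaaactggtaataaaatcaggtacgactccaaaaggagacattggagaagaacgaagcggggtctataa
ENSG00000241434 was listed at 4.30, 2.83 and 2.31 FPKM in EV and at 0 in the 3 Short libraries (fitted log2 difference -2.02, SE 0.18, adjusted p = 0.00301, limma). The size of this difference was set by the pseudocount, being -4.97 with a pseudocount of 0.1. The pseudogene reached the minimum mean for the fit only through the EV libraries, as its Long mean was 0.159 FPKM. RPL39, a short protein of the large ribosomal subunit, was at 1912, 1871 and 1612 FPKM in EV and at 1973, 1842 and 1517 FPKM in Short, without a shared direction in the pairs. ZNF813, a zinc finger gene, was at 5.996, 5.41 and 4.03 FPKM in EV and at 4.80, 3.18 and 5.84 FPKM in Short, lower in pairs 1 and 2 and higher in pair 3. Reads of the pseudogene cannot be told apart from those of its neighbours with the values at hand, and the fall is uncertain for that reason.

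C4orf48, which encodes a small protein annotated as neuropeptide-like, rose by nearly the same amount in each pair. It was at 6.01, 8.05 and 6.95 FPKM in EV and at 9.74, 12.9 and 11.2 FPKM in Short, and the groups did not overlap. The pair differences were 0.61, 0.62 and 0.61 (log2 difference 0.62, SE 0.07, adjusted p = 0.0115, limma). ENSG00000239935, an identifier without a match in the annotation used here, rose from 139, 168 and 134 FPKM in EV to 205, 253 and 186 FPKM in Short (log2 difference 0.54, SE 0.06, adjusted p = 0.0115, limma). It was also the 1 gene (0.00725% of those tested) that differed between Short and Long at an adjusted p under 0.05, with 139, 141 and 117 FPKM in the Long libraries (log2 difference Short minus Long 0.69, adjusted p = 0.00392, limma). The 4 genes besides ADARB1 did not pass when replicate 1 was left out, although their differences stayed close to those above. The adjusted p in limma was then 0.239 for C4orf48 (log2 difference 0.62), 0.239 for SNORA21 (1.44), 0.239 for ENSG00000239935 (0.53) and 0.131 for ENSG00000241434 (-1.83). When replicate 2 was left out instead, it was 0.0997 for C4orf48. If the replicate number was not used as a block, the adjusted p was 0.713 for C4orf48 and ENSG00000239935 and 0.579 for SNORA21. With the Short and EV libraries alone, it was 0.104 for C4orf48 and 0.0573 for SNORA21. ENSG00000239935 did not pass with TPM (adjusted p = 0.0776, limma), with median ratio scaling (adjusted p = 0.0866) or without the intensity trend (adjusted p = 0.166). Correction of each library for GC content gave C4orf48 a difference of 0.40 (adjusted p = 0.203, limma) and SNORA21 one of 1.59 (adjusted p = 0.0519, limma).

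Among genes averaging 10 FPKM or more, those that were higher by the widest margin in their smallest pair difference were examined next. None of those named in this paragraph passed the adjusted threshold. ATP6V0C, which encodes the proton channel subunit of the vacuolar ATPase, was at 66.0, 61.8 and 62.9 FPKM in EV and at 84.6, 80.6 and 81.1 FPKM in Short, so the groups were well apart (log2 difference 0.36, SE 0.05, adjusted p = 0.0678, limma). PKP3, a plaque protein of desmosomes, was at 26.2, 25.5 and 25.2 FPKM in EV and at 35.7, 32.9 and 32.6 FPKM in Short (log2 difference 0.38, SE 0.06, adjusted p = 0.0723, limma). TMEM160, a protein of mitochondrial membranes, was at 8.96, 12.7 and 11.2 FPKM in EV and at 14.2, 19.2 and 14.5 FPKM in Short (log2 difference 0.50, SE 0.07, adjusted p = 0.0723, limma). DHX34, an RNA helicase of the nonsense-mediated decay pathway, had log2 differences of 0.32, 0.44 and 0.33 in the pairs. METTL26, FAM174C and RPUSD1, the last with a pseudouridine synthase domain, were higher by 0.50, 0.49 and 0.35, respectively, with SE of 0.11, 0.13 and 0.08. ACTB, the cytoplasmic actin often used as a reference gene, was at 1116, 958 and 959 FPKM in EV and at 1336, 1128 and 1122 FPKM in Short, with groups apart (log2 difference 0.24, SE 0.05, adjusted p = 0.11, limma), and GAPDH, a glycolytic enzyme used likewise, differed by 0.12 (SE 0.04, adjusted p = 0.117, limma). Groups that do not overlap were found for 1509 genes higher in Short (10.9%) and 291 lower in Short (2.11%).

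Genes chosen by the same measure toward lower values had differences that were often uneven between the pairs, and none of those named here passed the adjusted threshold. SMC4, the ATPase that condensin I and condensin II share, was at 94.7, 80.5 and 133 FPKM in EV and at 54.7, 59.4 and 104 FPKM in Short, lower within each passage although the groups overlapped (log2 difference -0.52, SE 0.10, adjusted p = 0.11, limma). ASPM, a spindle pole protein, was at 15.4, 13.2 and 23.4 FPKM in EV and at 5.12, 9.59 and 18.5 FPKM in Short (log2 difference -0.72, SE 0.22, adjusted p = 0.119, limma). CENPF, which binds kinetochores in mitosis, was at 38.7, 29.0 and 57.5 FPKM in EV and at 11.9, 21.4 and 47.2 FPKM in Short. In these genes the difference was largest in pair 1, and replicate 3 had the highest level in both groups.

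The golgins GOLGA4 and GOLGB1, long tethers of the Golgi membrane, showed the same order of pairs. GOLGA4 was at 15.1, 11.2 and 19.1 FPKM in EV and at 4.82, 8.08 and 15.3 FPKM in Short, and GOLGB1 was at 17.1, 14.0 and 24.9 FPKM in EV and at 6.01, 8.87 and 20.01 FPKM in Short. OPA1, which fuses the inner mitochondrial membrane, was at 56.2, 54.0 and 83.1 FPKM in EV and at 37.5, 42.3 and 67.6 FPKM in Short. RIF1, a regulator of replication timing and double-strand break repair, differed by -1.23, -0.37 and -0.27 in the pairs. STXBP3, a partner of syntaxins in vesicle fusion, had even differences of -0.32, -0.31 and -0.38. IMMP1L, a peptidase of the inner mitochondrial membrane, was at 32.7, 44.3 and 33.0 FPKM in EV and at 22.7, 21.8 and 26.1 FPKM in Short, and its groups did not overlap (log2 difference -0.61, SE 0.11, adjusted p = 0.11, limma).

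**Figure D1:**
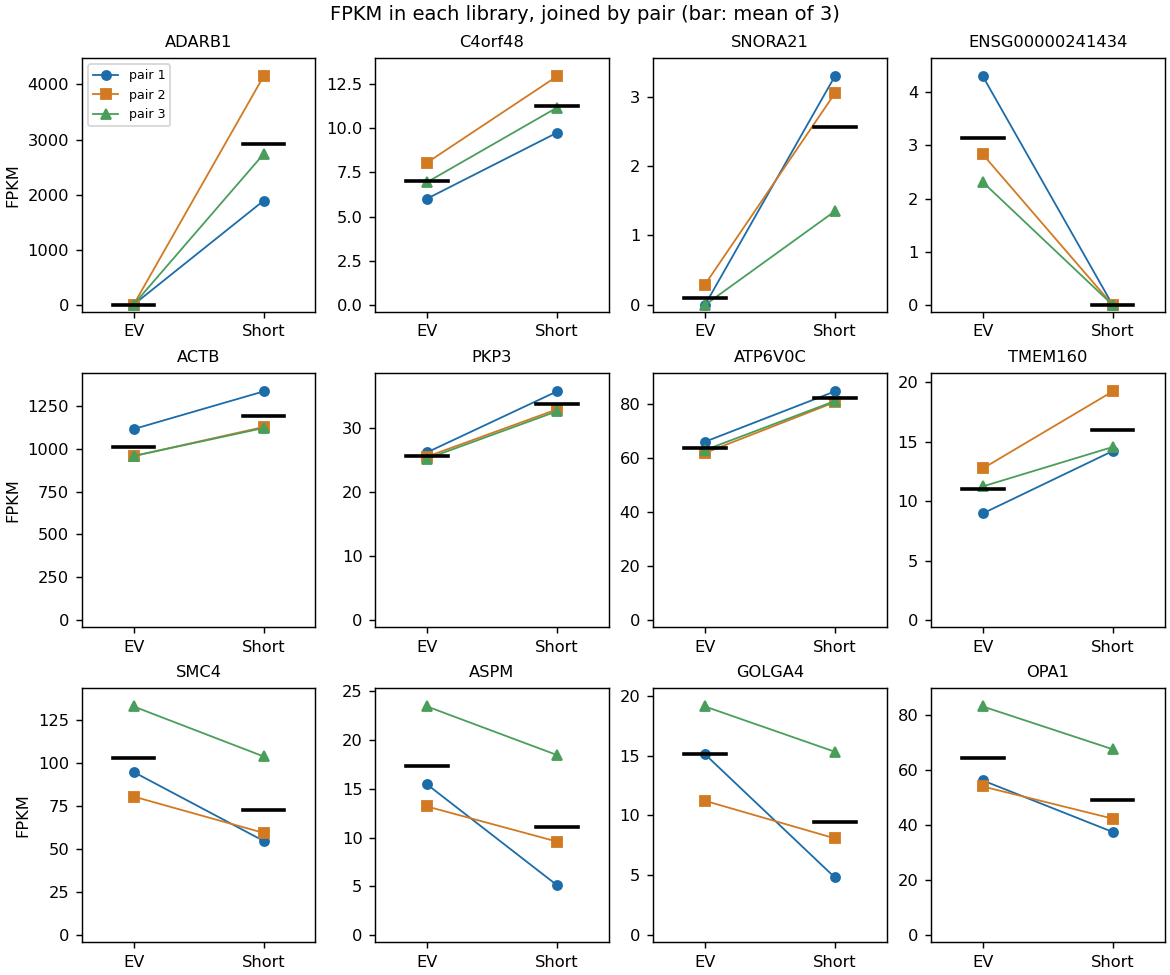
Each panel shows the FPKM of one gene in the EV and Short libraries on a linear axis from 0, with lines that join the libraries of a pair and bars at the mean of 3. The lines run nearly parallel in C4orf48, ACTB, PKP3 and ATP6V0C, and in SMC4, ASPM, GOLGA4 and OPA1 they all slope down while replicate 3 stays highest.

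For 5 of the genes above, the 90 bases at the middle of their coding sequences are shown, for 3 genes that were higher and 2 that were lower, as annotated on GRCh37. C4orf48 (chr4:2043722-2045691), TMEM160 (chr19:47549167-47551882) and PKP3 (chr11:394209-404908) were higher in Short, and their whole coding sequences have 75.8%, 73.2% and 67.3% GC. The 90 bases shown have 75.6%, 61.1% and 61.1% GC, so those of TMEM160 and PKP3 are less GC-rich than the whole.
C4orf48: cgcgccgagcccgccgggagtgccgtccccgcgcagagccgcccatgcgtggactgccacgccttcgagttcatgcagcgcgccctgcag
TMEM160: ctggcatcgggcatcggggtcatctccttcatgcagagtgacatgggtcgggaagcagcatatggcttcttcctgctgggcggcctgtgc
PKP3: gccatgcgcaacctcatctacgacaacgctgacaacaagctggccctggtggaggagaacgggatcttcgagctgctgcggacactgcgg
SMC4 (chr3:160117438-160152741) and GOLGA4 (chr3:37284762-37408370) were lower in Short, and their coding sequences have 37% and 38.4% GC. The 90 bases shown have 37.8% GC in each.
SMC4: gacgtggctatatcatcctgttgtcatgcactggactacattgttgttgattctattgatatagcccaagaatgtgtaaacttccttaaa
GOLGA4: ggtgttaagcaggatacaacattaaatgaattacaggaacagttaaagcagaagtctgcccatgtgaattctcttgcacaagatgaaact

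The same division ran through the whole transcriptome. When genes were split into 5 classes of equal size by the GC content of their longest transcript, 1068 of the 2680 most AT-rich genes (39.9%) were lower in the 3 pairs and 73 (2.72%) were higher, whereas 1619 of the 2680 most GC-rich genes (60.4%) were higher and 41 (1.53%) were lower. With median ratio scaling the counts were 1354 lower and 34 higher in the AT-rich class, and 1221 higher and 95 lower in the GC-rich class. Relative to all genes, the median of the AT-rich class was -0.11, -0.27 and -0.11 in pairs 1 to 3, and that of the GC-rich class was 0.03, 0.15 and 0.10. The spread between the classes was widest in pair 2, and in pair 1 it lay mostly between the AT-rich class and the others. Transcript length gave a flatter pattern, with relative medians of 0.03, 0.05 and 0.02 for the shortest of 5 length classes and -0.03, -0.13 and -0.02 for the longest. Long genes were also AT-rich, with a median of 43.4% GC in the longest class against 51.7% in the shortest. When genes were split at the median GC content and the median length, length made little difference among GC-rich genes: short and long GC-rich genes had relative medians of 0.07 and 0.06, while AT-rich short and AT-rich long genes had -0.05 and -0.09. For most lists of genes below, medians or counts are also given after each library was corrected for GC content by a loess curve. For some lists, the median after the same kind of correction for transcript length is given as well. After that correction, 3649 of the 13801 genes were higher in the 3 pairs and 1487 were lower. Corrected counts are to be read against these. Whether the relation arose in the cells or in the preparation of libraries was not tested.

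**Figure D2:**
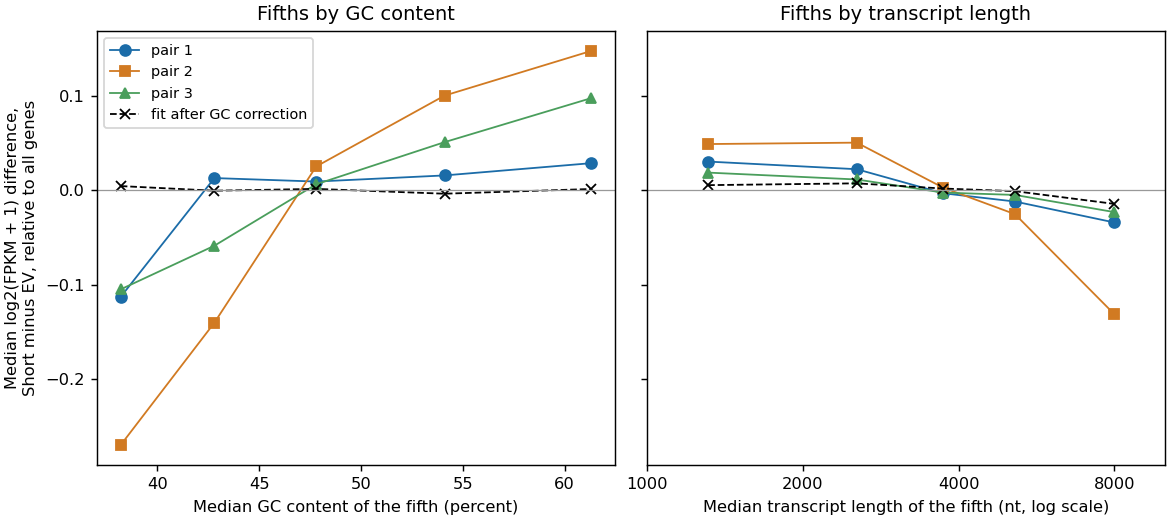
The vertical axis shows the median log2(FPKM + 1) difference of each of 5 classes of genes, Short minus EV, relative to all genes, against the median GC content (left) or transcript length on a log axis (right) of the class. Coloured lines are the 3 pairs and the dashed line is the fit after GC correction. In each pair the AT-rich class is the lowest and the GC-rich class the highest, from -0.27 to 0.15 in pair 2. The corrected medians by GC class stay between -0.0036 and 0.0045, which follows from the correction itself, since it removes the trend with GC content.

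By chromosome, the medians followed the same order. Among the nuclear chromosomes, 19 and 22 stood highest relative to all genes, at 0.08 and 0.07, with 507 of 883 and 172 of 335 genes higher in the 3 pairs, and their genes had a median GC content of 58.4% and 56.1%. Chromosomes 4 and 13 stood lowest, each at -0.07, with 104 of 494 and 64 of 249 genes lower in the 3 pairs, and a median GC content of 42.5% and 43.2%. After GC correction the 4 chromosomes lay between -0.03 and 0.01. By annotated type, 12089 protein-coding genes had a relative median of 0.0032, 384 processed pseudogenes -0.0014 and 591 long noncoding RNAs -0.04.

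To describe pathways, 55 gene lists with 2097 distinct tested genes were compared with all genes, and 52 of them had at least 5 tested genes. The list median lay above that of all genes in every pair for 17 lists and below it in every pair for 11, while 24 lists were mixed. No list member other than ADARB1 passed the adjusted threshold, so the counts below are of genes with a shared direction in the 3 pairs. Among all genes, 32% were higher and 13.4% lower, but these shares depended on expression level. In the lowest of 5 classes by mean FPKM, 18.1% were higher and 16% lower, and in the highest, from 33.5 FPKM, 49.7% and 6.09%. Lists of highly expressed genes, such as those of the respiratory chain, glycolysis, ribosome, proteasome and spliceosome, are to be read against the latter shares. They describe bulk RNA, in which fewer cells of a type and less RNA per cell cannot be told apart.

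**Figure D3:**
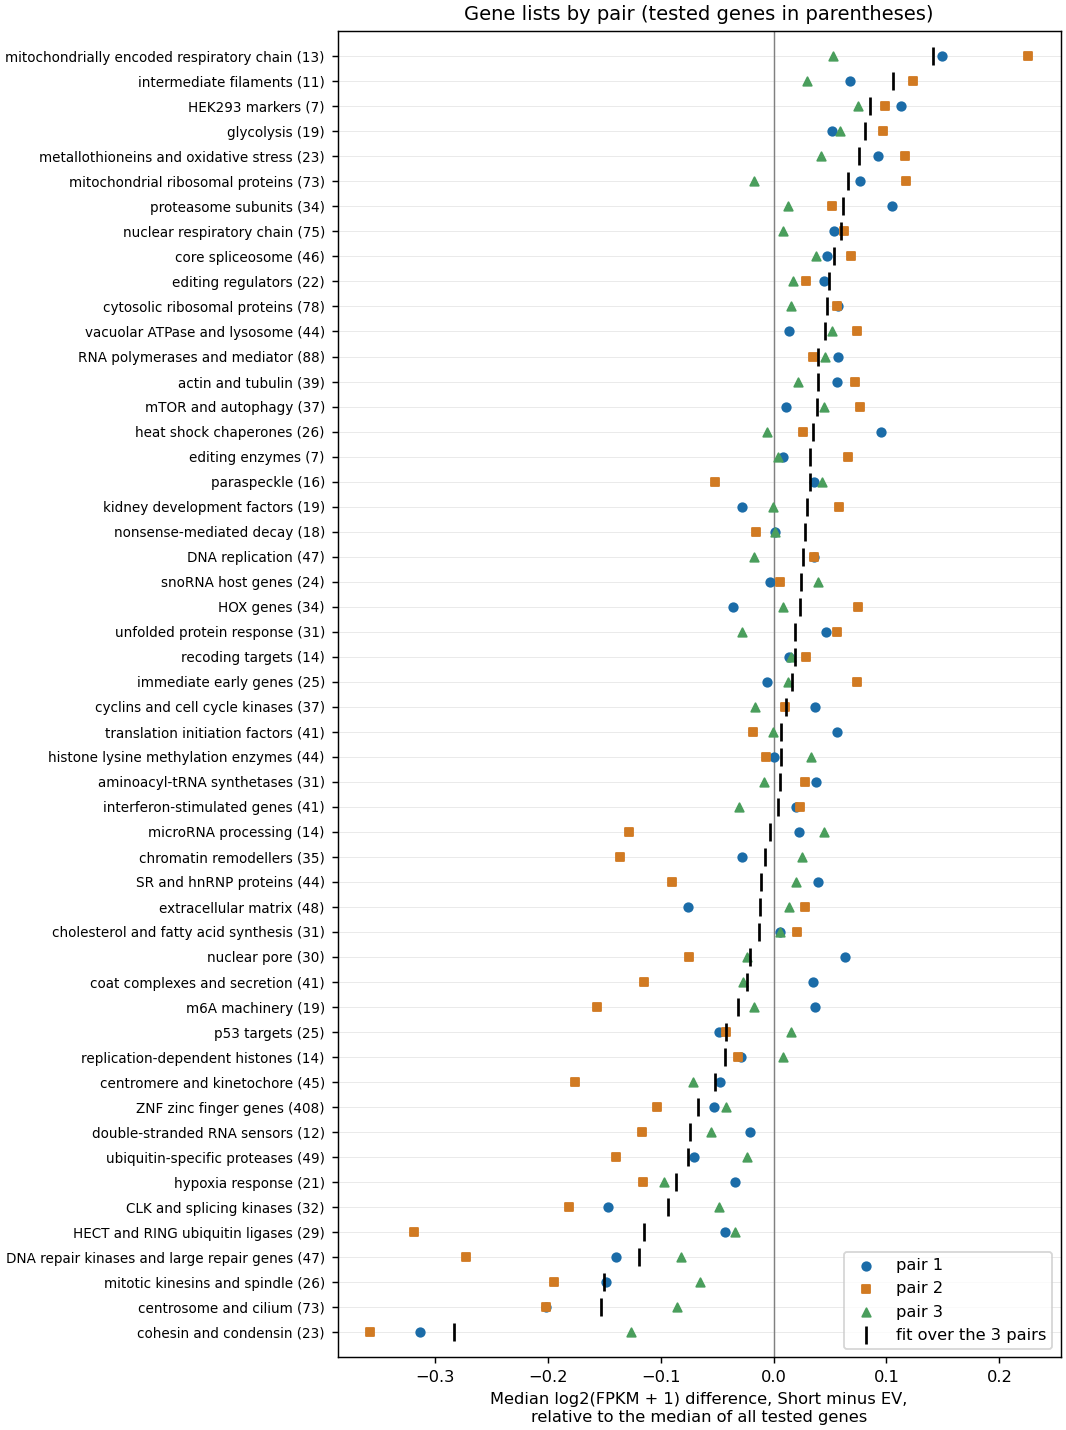
Each row is a gene list with its number of tested genes, and the horizontal axis is the median log2(FPKM + 1) difference, Short minus EV, relative to the median of all genes. Symbols are the 3 pairs and the black bar is the fit. Mitochondrially encoded genes lie farthest to the right, with 0.15, 0.23 and 0.05 in the pairs, and cohesin and condensin genes farthest to the left, with -0.31, -0.36 and -0.13.

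The list that stood highest held the 13 protein-coding genes of the mitochondrial DNA, which encode core subunits of respiratory complexes I, III and IV and of the ATP synthase. Of these, 11 (84.6%) were higher in the 3 pairs and none was lower. An unadjusted p under 0.05 toward higher values was found for 12, against 15.2% of all genes. In the highest of 5 classes by mean FPKM, it was found for 948 of 2760 genes. With median ratio scaling, 8 of the 13 mitochondrial genes were higher in the 3 pairs. MT-ND2, a complex I subunit, was at 1063, 1186 and 1414 FPKM in EV and at 1352, 1711 and 1575 FPKM in Short, higher in each passage (log2 difference 0.34, SE 0.06, adjusted p = 0.11, limma). MT-ND1 of the same complex was at 1322, 1302 and 1411 FPKM in EV and at 1595, 1828 and 1557 FPKM in Short, and its groups did not overlap (log2 difference 0.30, SE 0.07, adjusted p = 0.11, limma). MT-CYB, the cytochrome b of complex III, was at 1729, 1737 and 1975 FPKM in EV and at 2025, 2084 and 2162 FPKM in Short. MT-CO1, the catalytic subunit of complex IV and one of the most abundant transcripts, was at 8428, 7350 and 6550 FPKM in EV and at 9502, 8516 and 6583 FPKM in Short, nearly equal in pair 3. The exceptions were MT-ND3 and MT-ATP8, which were higher in pairs 1 and 2 and lower in pair 3. MT-ND6, which is transcribed from the other strand, was at 330, 366 and 385 FPKM in EV and at 456, 395 and 454 FPKM in Short. The relative median of the list was 0.14 as fitted, 0.16 after GC correction and 0.11 after correction for transcript length. In the Long libraries, which share the EV controls, the relative median was 0.22. Nuclear copies of mitochondrial sequence exist, and how the authors assigned such reads is not given in the sources used here.

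**Figure D4:**
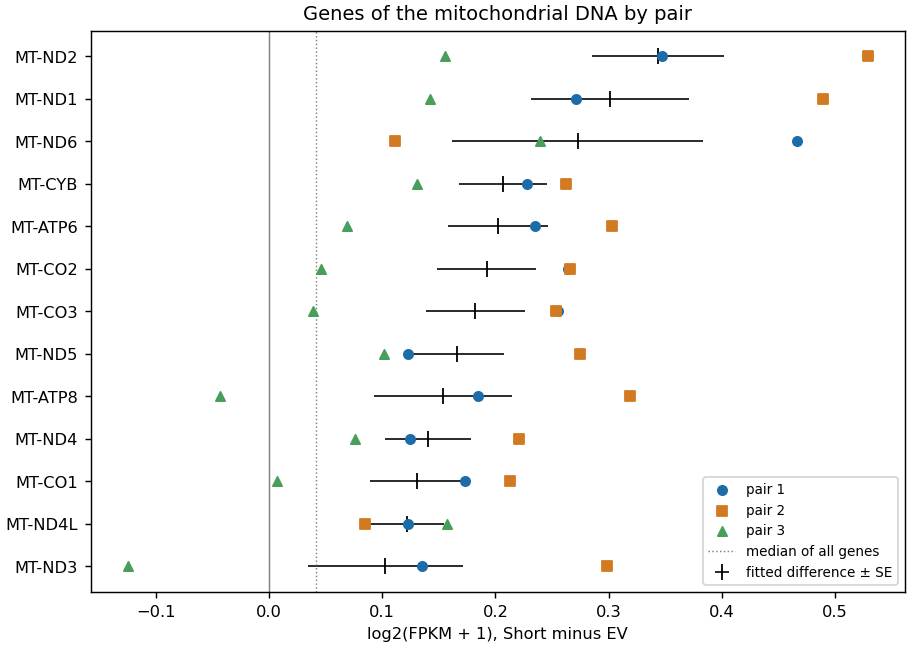
The log2(FPKM + 1) difference, Short minus EV, is shown for each protein-coding gene of the mitochondrial DNA, with symbols for the 3 pairs and a bar with SE for the fit. Fitted differences run from 0.10 for MT-ND3 to 0.34 for MT-ND2, all to the right of the dotted median of all genes at 0.04, and pair 3 is the lowest in most genes.

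Nuclear genes of the respiratory chain lay above all genes in each pair, but by about as much as highly expressed genes in general. Of 75, 45 (60%) were higher in the 3 pairs and 1 was lower, with relative medians of 0.05, 0.06 and 0.01 in the pairs. The highest of 5 classes by mean FPKM had 0.05, 0.06 and 0.02. Over the pairs, the relative median of the list was 0.06 after GC correction and 0.04 after correction for transcript length. That class had 0.04 and 0.03. NDUFS7, a complex I subunit that carries an iron-sulfur cluster, was at 77.5, 76.3 and 69.4 FPKM in EV and at 96.3, 94.3 and 82.1 FPKM in Short, with groups apart (log2 difference 0.28, SE 0.05, adjusted p = 0.11, limma). NDUFB7 of the same complex was at 146, 155 and 148 FPKM in EV and at 183, 181 and 171 FPKM in Short. The member lower in the 3 pairs was NDUFA5, also of complex I, at 32.0, 29.9 and 44.2 FPKM in EV and 26.3, 28.8 and 35.6 FPKM in Short. Proteins of the mitochondrial ribosome, which translates the mitochondrial transcripts, were mixed by pair, with relative medians of 0.08, 0.12 and -0.02, and 34 of 73 were higher in the 3 pairs. Over the pairs, the relative median of this list was 0.07 as fitted and 0.03 after correction for transcript length.

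Glycolysis genes were higher in 12 of 19 cases (63.2%) and lower in none. GPI, which converts glucose 6-phosphate to fructose 6-phosphate, was at 145, 123.3 and 118 FPKM in EV and at 167, 145 and 133 FPKM in Short (log2 difference 0.20, SE 0.05, adjusted p = 0.11, limma). ALDOA, the aldolase of muscle type, was at 729, 543 and 451 FPKM in EV and at 799, 632 and 498 FPKM in Short. LDHA, the lactate dehydrogenase subunit, had pair differences of 0.06, -0.01 and -0.10. These genes are GC-rich, with a median of 53.1%, and their relative median of 0.08 became 0.01 after GC correction. The list of hypoxia response genes stood on the other side, with relative medians of -0.03, -0.12 and -0.10, 5 of 21 genes higher and 3 lower in the 3 pairs, which became 2 higher and 6 lower after GC correction. PLOD2, a lysyl hydroxylase of collagen, was at 65.8, 57.2 and 52.0 FPKM in EV and at 52.6, 38.0 and 45.5 FPKM in Short.

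Ribosomal protein, proteasome and core spliceosome genes lay slightly above all genes in each pair, whereas translation initiation factors and aminoacyl-tRNA synthetases were mixed, with relative medians of 0.0065 and 0.0053. The highest of 5 classes by mean FPKM had similar relative medians of 0.05, 0.06 and 0.02 in the pairs, and 0.04 after GC correction. Of 78 cytosolic ribosomal protein genes, 43 (55.1%) were higher in the 3 pairs and 1 was lower, which became 28 and 3 with median ratio scaling, and the relative median was 0.05 as fitted and 0.04 after GC correction. RPLP1, a protein of the ribosomal stalk, was at 1165, 1098 and 1052 FPKM in EV and at 1365, 1326 and 1313 FPKM in Short, with groups apart (log2 difference 0.27, SE 0.04, adjusted p = 0.0774, limma). Of 34 proteasome subunit genes, 19 (55.9%) were higher and 1 was lower, and the relative median was 0.06 as fitted and 0.07 after GC correction. PSMD3, a subunit of the regulatory particle, was at 99.2, 96.2 and 102 FPKM in EV and at 121, 119 and 119 FPKM in Short (log2 difference 0.27, SE 0.05, adjusted p = 0.11, limma). Of 46 core spliceosome genes, 27 (58.7%) were higher and 3 were lower, with relative medians of 0.05, 0.07 and 0.04 that were 0.07 over the pairs after GC correction. After correction for transcript length instead, the relative medians were 0.03 for ribosomal protein, 0.05 for proteasome and 0.03 for core spliceosome genes. The highest class by mean FPKM then had 0.03. SF3A1, a component of the U2 particle, was at 56.5, 49.1 and 52.5 FPKM in EV and at 64.9, 60.9 and 62.1 FPKM in Short. Translation initiation factors were split within a single complex: EIF3C and EIF3F were higher by 0.22 and 0.20, and EIF3E was lower at 170, 164 and 193 FPKM in EV and 126, 141 and 174 FPKM in Short (log2 difference -0.26, SE 0.08, adjusted p = 0.126, limma).

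The lowest list held cohesin, condensin and related SMC genes, whose ring-shaped complexes hold sister chromatids together and compact chromosomes. Of 23 genes, 14 (60.9%) were lower in the 3 pairs and 3 were higher. An unadjusted p under 0.05 toward lower values was found for 13, against 6.88% of all genes. The list is AT-rich, with a median of 39.4% GC. In the most AT-rich of the 5 GC classes, 39.9% were lower in the 3 pairs. There, 679 of 2680 genes had such a p toward lower values, and the relative median was -0.155. With median ratio scaling, 15 of the 23 genes were lower and 1 was higher. The ATPase subunits were lower with 1 exception. SMC2, the partner of SMC4 in condensin, was at 21.4, 18.8 and 31.8 FPKM in EV and at 9.86, 15.3 and 29.6 FPKM in Short. SMC3 of cohesin was at 35.1, 30.4 and 49.5 FPKM in EV and at 19.2, 24.5 and 44.2 FPKM in Short (log2 difference -0.43, SE 0.14, adjusted p = 0.132, limma). Its partner SMC1A was higher in the 3 pairs, at 272, 246 and 236 FPKM in EV and 298, 247 and 257 FPKM in Short. SMC5 and SMC6, which form a separate repair complex, differed by -0.44 and -0.48, with SE of 0.14 and 0.12.

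Regulators of the ring followed the same division. NIPBL, which loads cohesin onto DNA, was at 26.99, 21.1 and 37.7 FPKM in EV and at 11.7, 14.4 and 33.6 FPKM in Short, the largest difference of the list (log2 difference -0.61, SE 0.20, adjusted p = 0.134, limma). MAU2, its binding partner, was at 19.2, 19.1 and 18.4 FPKM in EV and at 19.01, 21.2 and 19.1 FPKM in Short. PDS5B, STAG2 and ESCO1 were lower in the 3 pairs, whereas the condensin subunits NCAPD2 and NCAPH2 were higher in the 3 pairs, by 0.12 and 0.14. The members differed in base composition, with 36.4% GC in PDS5B, 36.2% in STAG2 and 39.4% in NIPBL, but 57.2% in MAU2, 51.6% in NCAPD2 and 61.3% in NCAPH2. After GC correction the relative median of the list went from -0.28 to -0.15, with 8 genes lower and 1 higher in the 3 pairs. The size of the shift differed by passage, with relative medians of -0.31, -0.36 and -0.13, and the relative median was -0.36 without replicate 3. In the Long libraries it was -0.51 against the same EV controls.

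**Figure D5:**
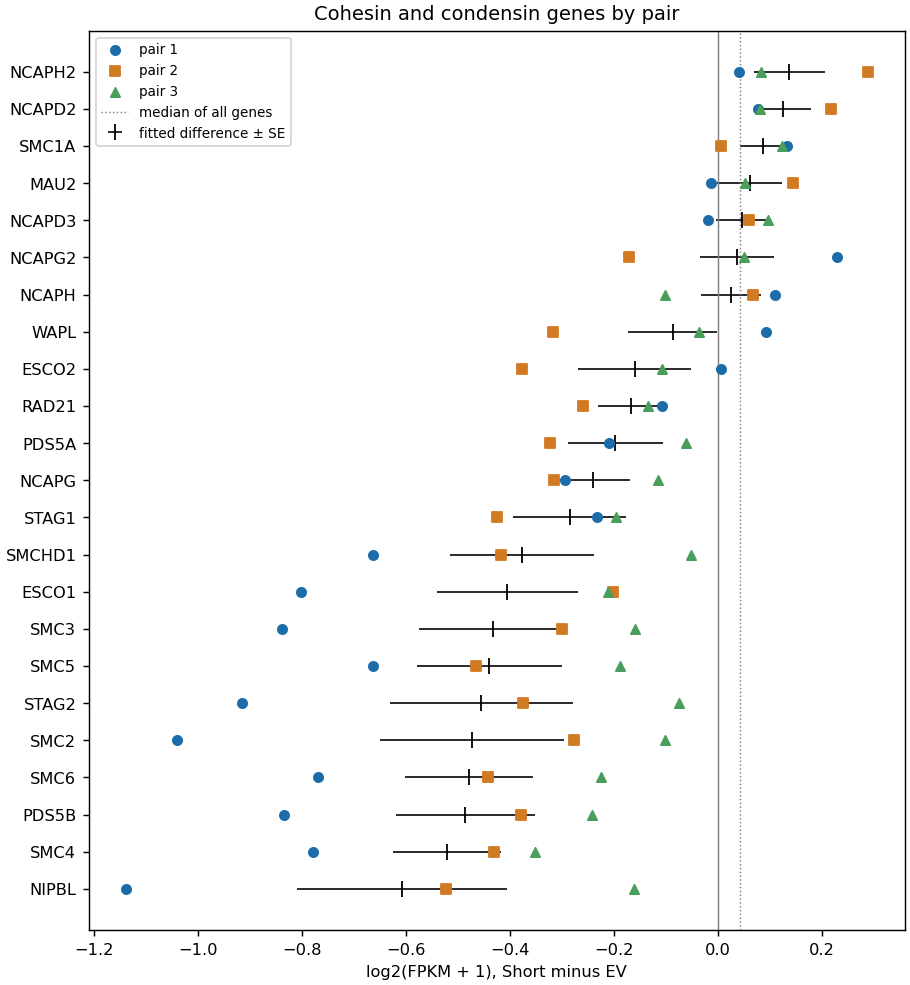
The log2(FPKM + 1) difference, Short minus EV, is shown for each gene of the cohesin and condensin list, with symbols for the 3 pairs and a bar with SE for the fit. The genes from NIPBL to RAD21 lie to the left of 0 in each pair, pair 1 reaches -1.14 in NIPBL, and pair 3 lies closest to 0 for most of them.

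Other lists of the dividing cell were shifted in the same direction. Of 73 centrosome and cilium genes, 33 (45.2%) were lower in the 3 pairs and 8 were higher, with relative medians of -0.20, -0.20 and -0.09 and of -0.09 after GC correction. CEP162, which marks the transition zone of cilia, was at 2.95, 2.71 and 4.11 FPKM in EV and at 1.076, 1.65 and 2.82 FPKM in Short (log2 difference -0.61, SE 0.14, adjusted p = 0.11, limma). Of 26 mitotic kinesin and spindle genes, 12 (46.2%) were lower and 6 were higher, and the relative median was -0.15 as fitted and -0.11 after GC correction. KIF20B, a motor of late cell division, was at 9.76, 7.84 and 13.4 FPKM in EV and at 2.92, 6.29 and 10.2 FPKM in Short, whereas PLK1, a kinase of mitotic entry, was higher at 89.6, 76.0 and 77.2 FPKM in EV and 106, 91.2 and 84.6 FPKM in Short. Of 45 centromere and kinetochore genes, 16 were lower and 11 were higher, but after GC correction 8 were lower and 10 were higher, and the relative median went from -0.05 to -0.01. KNL1, the scaffold of the outer kinetochore, was at 7.57, 6.97 and 11.5 FPKM in EV and at 3.64, 5.34 and 8.64 FPKM in Short, and AURKB, the kinase of the chromosomal passenger complex, was at 108, 98.6 and 93.8 FPKM in EV and at 124, 109 and 102 FPKM in Short.

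Mitotic genes were thus found on both sides of the median of all genes. The genes of the cell cycle engine had relative medians of 0.04, 0.01 and -0.02. Of 37 cyclin and cell cycle kinase genes, 16 were higher and 4 were lower in the 3 pairs. CDK1, the kinase that drives mitosis, was at 85.1, 82.1 and 96.3 FPKM in EV and at 68.0, 64.9 and 81.5 FPKM in Short, with groups apart (log2 difference -0.30, SE 0.06, adjusted p = 0.11, limma). CDKN2A, an inhibitor of cyclin-dependent kinases, was at 41.9, 48.7 and 46.7 FPKM in EV and at 51.2, 56.5 and 55.4 FPKM in Short. Of 47 DNA replication genes, 20 were higher and 5 were lower, among them MCM2, a subunit of the replicative helicase, which was higher by 0.21 (SE 0.05), and ORC3, a subunit of the origin recognition complex, which differed by -0.31 (SE 0.10).

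The lists of large DNA repair genes, ubiquitin-specific proteases, HECT and RING ubiquitin ligases and ZNF genes also lay below all genes in each pair. Of 47 DNA repair kinases and large repair genes, 20 (42.6%) were lower and 7 were higher, with relative medians of -0.14, -0.27 and -0.08 that became -0.07 over the pairs after GC correction. Of 408 zinc finger genes of the ZNF series, most of which are transcriptional repressors, 112 (27.5%) were lower and 88 (21.6%) were higher. After GC correction 56 were lower and 93 were higher, where all genes also had more higher than lower (3649 against 1487 of 13801). The relative median of the ZNF genes went from -0.07 to -0.02, which was still below all genes. ZNF292 was at 9.31, 8.34 and 11.7 FPKM in EV and at 3.62, 4.60 and 8.74 FPKM in Short (log2 difference -0.76, SE 0.16, adjusted p = 0.11, limma), and ZNF579 was at 3.81, 4.10 and 3.61 FPKM in EV and at 5.17, 5.27 and 5.12 FPKM in Short (log2 difference 0.36, SE 0.09, adjusted p = 0.11, limma). Of the 49 ubiquitin-specific proteases 13 were lower and 12 were higher, and the relative median went from -0.08 to -0.02 after GC correction, while that of the 29 ubiquitin ligases went from -0.11 to -0.05. The list of RNA polymerase and mediator genes lay on the other side, with 40 of 88 genes higher and 3 lower and relative medians of 0.06, 0.03 and 0.05. Chromatin remodellers and nuclear pore genes were mixed by pair. Of 35 chromatin remodeller genes, 11 were higher and 10 were lower, with 7 and 7 after GC correction, and the relative medians were -0.03, -0.14 and 0.03. The nuclear pore list, with relative medians of 0.06, -0.07 and -0.02, held RANBP2, a component of the cytoplasmic filaments, at 14.9, 14.4 and 25.9 FPKM in EV and 6.41, 9.04 and 22.7 FPKM in Short, and POM121, a pore membrane protein, at 17.3, 15.2 and 15.6 FPKM in EV and 21.0, 19.1 and 18.2 FPKM in Short.

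The pathways that read double-stranded RNA or its products stood near all genes or slightly below. Of 41 tested interferon-stimulated genes, 10 (24.4%) were higher and 4 (9.76%) were lower, both shares below those of all genes, and the relative medians were 0.02, 0.02 and -0.03. LGALS3BP, a secreted glycoprotein, was at 81.4, 72.2 and 61.9 FPKM in EV and at 94.5, 90.02 and 67.9 FPKM in Short (log2 difference 0.22, SE 0.06, adjusted p = 0.11, limma). PARP14, an ADP-ribosyltransferase, was at 2.17, 1.84 and 2.17 FPKM in EV and at 1.55, 1.38 and 1.64 FPKM in Short, and IRF9, a subunit of the interferon-activated transcription factor, differed by -0.20 (SE 0.08, adjusted p = 0.189, limma). Of 12 tested sensors and their effectors, 4 were higher and 4 were lower, with relative medians of -0.02, -0.12 and -0.06, and after GC correction 4 were higher and 2 were lower. MAVS, the adaptor of the RIG-I-like receptors, was at 19.7, 19.5 and 20.5 FPKM in EV and at 20.7, 25.7 and 21.5 FPKM in Short, and the kinase TBK1 downstream of it was at 8.05, 7.78 and 11.4 FPKM in EV and at 6.49, 6.58 and 9.33 FPKM in Short.

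Genes known as recoding targets of editing were close to all genes as well, with 6 of 14 higher and 1 lower and relative medians of 0.01, 0.03 and 0.02. CYFIP2, a cytoplasmic partner of the fragile X protein, was at 82.6, 69.99 and 60.6 FPKM in EV and at 94.4, 76.0 and 68.7 FPKM in Short (log2 difference 0.16, SE 0.07, adjusted p = 0.226, limma). Regulators of editing were higher in 13 of 22 cases (59.1%) and lower in 4 (18.2%), with relative medians of 0.04, 0.03 and 0.02. Counts were 9 higher and 5 lower after median ratio scaling, and 14 higher and 1 lower after GC correction. The median of this list was 94.4 FPKM, and in the highest class by mean FPKM 49.7% were higher and 6.09% lower. FMR1, which encodes the fragile X protein, differed by -0.15 (SE 0.06).

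The unfolded protein response, heat shock and p53 lists were mixed by pair, and the oxidative stress list stood above all genes in each pair. Of 31 genes of the unfolded protein response, 12 were higher and 3 were lower, and its chaperones split, with CALR higher at 383, 348 and 381 FPKM in EV and 430, 395 and 409 FPKM in Short, and HSP90B1 lower at 327, 314 and 393 FPKM in EV and 312, 264 and 363 FPKM in Short. Of 26 heat shock chaperones, 12 were higher and 3 were lower. HSPB1, a small heat shock protein, was at 113, 99.7 and 80.6 FPKM in EV and at 129, 122 and 96.2 FPKM in Short (log2 difference 0.24, SE 0.05, adjusted p = 0.11, limma). Of 25 p53 targets, 8 were higher and 4 were lower, with 4 and 3 after GC correction, and RRM2B, a ribonucleotide reductase subunit, was at 10.96, 10.7 and 14.8 FPKM in EV and 7.24, 7.83 and 12.4 FPKM in Short. SLC7A11, the cystine transporter, stood against the direction of its list of oxidative stress genes, with 6.82, 6.99 and 7.07 FPKM in EV and 4.41, 4.61 and 6.18 FPKM in Short (log2 difference -0.40, SE 0.11, adjusted p = 0.11, limma). In that list 12 of 23 genes (52.2%) were higher in the 3 pairs, and the relative medians were 0.09, 0.12 and 0.04, with 0.05 over the pairs after GC correction against 0.08 before. After correction for transcript length, the relative median was 0.03.

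Kinases of splicing and their partners lay below all genes in each pair, with relative medians of -0.15, -0.18 and -0.05, and 11 of 32 (34.4%) were lower and 7 were higher. After GC correction, 6 were lower and 6 were higher, and the relative median went from -0.09 to -0.05. CLK1, which phosphorylates SR proteins, was at 31.0, 29.7 and 32.5 FPKM in EV and at 25.6, 21.0 and 28.2 FPKM in Short, with groups apart (log2 difference -0.32, SE 0.09, adjusted p = 0.11, limma). NKTR, a cyclophilin with an SR domain, was at 26.1, 25.6 and 34.3 FPKM in EV and at 17.3, 20.5 and 29.9 FPKM in Short. The SR and hnRNP genes themselves were mixed, with 14 of 44 higher and 6 lower, and with 22 higher and 3 lower after GC correction. PTBP1, a repressor of exon inclusion, was at 158, 138 and 150 FPKM in EV and at 179, 175 and 166 FPKM in Short, and MBNL2, a muscleblind splicing factor, was at 9.52, 6.88 and 9.50 FPKM in EV and at 6.22, 4.52 and 7.94 FPKM in Short (log2 difference -0.43, SE 0.11, adjusted p = 0.11, limma).

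The markers of the cell line were expressed in both groups, and those of other cell types were near 0 with 1 exception. Of 7 HEK293 markers tested, 4 were higher in the 3 pairs and none was lower. PAX2, NEFM and EYA1 were mixed by pair, and EYA1 was lower in pairs 2 and 3 (log2 difference -0.10). The relative median of the markers was 0.09 as fitted and 0.04 after GC correction. The keratins KRT8 and KRT18 were at 163 to 189 and 76.3 to 87.1 FPKM in EV and at 174 to 216 and 82.5 to 99.6 FPKM in Short. The 5 blood markers stayed below 1 FPKM in all libraries, with HBB at 0 throughout, and so did 3 of 4 fibroblast markers. COL1A1, the exception, was at 9.10 to 12.04 FPKM in EV and at 9.54 to 12.9 FPKM in Short. Intermediate filament genes stood second among the lists, with 9 of 11 (81.8%) higher and none lower, and LMNB2, a lamin of the nuclear envelope, was at 79.5, 75.7 and 80.9 FPKM in EV and 91.5, 93.8 and 89.95 FPKM in Short. Their relative median of 0.11 became 0.04 after GC correction.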

How the data were processed

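Paired-end strand-specific poly(A) RNA-seq was performed on 9 libraries. Per the labels and the methods, the authors mapped reads to Ensembl transcripts and hg19 with TopHat (version 1.4.1), and the processing notes also name Cufflinks. They deposited FPKM per gene and library, without pooling. GENCODE (GRCh37) supplied gene names, GC content, length and sequences, for 97.1% of the genes tested.

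From these values, log2(FPKM + 1) was tested in limma 3.58.1 (R 4.3.3) with an intensity trend, terms for group and for replicate number (the block), and 13801 genes, with Benjamini-Hochberg adjustment. The script was tested on simulated data. The methods state that transfections were repeated in different passages. The deviations of same-numbered libraries from their group means correlated across genes at 0.33 to 0.81 (9 pairs), against -0.63 to 0.37 (18 pairs) for other numbers. Deviations cancel out within each group, so that these ranges are not independent of each other. The 13 alternatives covered pseudocount, scaling, block, libraries, trend, filter, left-out replicates, GC content and length (loess, span 0.3). Genes of the unmatched identifiers were left uncorrected.

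The members and lists were chosen with earlier results of these data known. Named genes were ADARB1, ADAR, ADARB2, GAPDH and ACTB, genes with an adjusted p under 0.05, the 12 per direction with the largest smallest pair difference among genes averaging 10 FPKM or more with an unadjusted p under 0.05, and up to 2 members per direction of each list by the same measure. Further members of the lists, and RPL23, RPL39 and ZNF813, were named after their values were seen. Editing sites were not analysed here, and a few genes and a sequence that these rules name are not reported here.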

Additional observations from a re-analysis of the deposited data

How the results depend on the processing

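ADARB1 passed under each of the 13 alternatives. The number of genes with an adjusted p under 0.05 (5, 4 higher and 1 lower) was 2 without the replicate block (1 higher), 3 without the intensity trend (2 higher), 3 after GC correction (2 higher), 3 with a mean of at least 5 FPKM (0 lower) and 1 with no filter (1 higher, 0 lower). With the minimum of 5 FPKM the lower gene, ENSG00000241434, had no test because its mean is under 5 FPKM, and with no filter its adjusted p was 0.194 (limma). Leaving out a replicate gave 2 to 59 genes, 1 to 16 higher and 1 to 43 lower.

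At an unadjusted p under 0.05 (3041, 2092 higher and 949 lower), 963 genes passed without the replicate block (850 higher, 113 lower) and 1804 after GC correction (1344 higher, 460 lower). Rescaling to TPM gave 603 higher and 2034 lower, and median ratio scaling 1134 higher and 1581 lower. Leaving out a replicate gave 1469 to 2548 genes, 889 to 1712 higher and 580 to 1059 lower, with the lowest counts without replicate 2.

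Genes higher in the 3 pairs numbered 2059 with TPM and 2917 with median ratio scaling, and genes lower in the 3 pairs 3561 with TPM and 2900 with no filter. With no filter, 29 lists lay above and 6 below all genes in every pair, in place of 17 and 11. The relative median of the double-stranded RNA sensors became 0.04 with a mean of at least 5 FPKM. That of cholesterol and fatty acid synthesis, -0.01 as fitted although it lay above all genes by 0.0058 to 0.0206 in the pairs, became 0.0, 0.0 and 0.02 without replicates 1, 2 and 3 and 0.03 with no filter. Except where stated, the cause of these shifts was not tested. The depth of the libraries is unknown, and values near 1 FPKM rest on few fragments.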

Other observations

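Several values were looked up after they had been seen in the table and belong to no list. GH1, which encodes pituitary growth hormone, was at 0.392, 0.667 and 1.10 FPKM in EV and at 1.38, 5.02 and 4.37 FPKM in Short (log2 difference 1.33, SE 0.19, adjusted p = 0.0723, limma), and at 2.07, 5.75 and 3.37 FPKM in Long. Its EV mean was 0.719 FPKM, so that GH1 entered the fit only through the Short and Long libraries. Its paralogs GH2, CSH1 and CSH2 were at 0 to 0.176 FPKM in the EV and Short libraries. Expression vectors of this kind commonly carry a growth hormone polyadenylation signal, and whether the GH1 reads came from the plasmid was not tested. SNORA71B, another H/ACA small nucleolar RNA, was listed at 0.302, 0 and 0 FPKM in EV and at 4.93, 3.04 and 1.35 FPKM in Short (log2 difference 1.81, SE 0.31, adjusted p = 0.11, limma). It entered the fit only through the Short libraries, as its Long mean was 0.271 FPKM.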
